A study of Rattus norvegicus with 17 samples.

Results

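Solute carriers are the membrane proteins that move sugars, amino acids, phosphate, organic ions, vitamins, metals and metabolic intermediates across the surface of a cell or into its organelles, and the transcripts of 96 of them were measured here in the kidney of the rat after sub-total nephrectomy (SNx).

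The members are the Ensembl rat genes whose symbol begins with Slc and a number in the transcript lists that accompany the study, with Slc3a1 and Slc26a1 set aside. They belong to 35 subfamilies and are 96 of 23487 genes in the count table, and 96 of 2007 genes to which those lists give a symbol.

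The lists hold genes from comparisons of SNx with control kidneys, and only part of each was used here. The members are therefore not the whole family, and their choice rests on measured values. Of the 96, 92 were listed from study 1, which used other rats, 17 of them from study 2 as well, and 4 (Slc1a4, Slc19a1, Slc4a8 and Slc10a5) were listed from study 2 alone, whose libraries are those described here. The 92 are therefore tested in rats that did not choose them, and the 4 are given as values without a test.

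Most renal solute carriers known for reabsorption and secretion sit in the proximal tubule, the segment that follows the glomerulus. Sodium-coupled carriers in its brush border take up glucose, amino acids, phosphate and carboxylates from the filtrate, carriers in its basolateral membrane pass them to blood or take up organic anions and cations for secretion, and carriers of the inner mitochondrial membrane serve its oxidative metabolism and gluconeogenesis. Loss of single carriers of this segment is known from inherited disorders with glucose, amino acids or phosphate in the urine.

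The kidneys came from male Wistar Han rats of study 2. In the SNx rats a large part of the right kidney had been resected and the left kidney was removed later, so the library is of a remnant of the right kidney. The 5 controls are labelled NoOp, although the study's methods describe the controls of this study as sham-operated, and the labels name no allele or agent for either group. Rats were to be killed once serum creatinine or urinary protein had risen past a set threshold, and their times after surgery differed. By the study's text, fewer SNx rats of study 2 reached that threshold than there are SNx libraries here, so some libraries are of rats below it or some rats gave more than 1 library, and the labels do not say which. Nor do they tie any library to a rat of its own, so the p-values measure the spread between libraries, part of which may be technical. No pair of libraries of a group agreed within counting noise. The lowest chi-square per degree of freedom was 25.2, for SNx 7 and SNx 12 over 13477 genes. Next came SNx 5 and 6 (27.17), 9 and 11 (27.75), 4 and 11 (27.99) and 2 and 3 (28.66). The lowest NoOp pair was at 30.21. The medians were 94.96 over 66 SNx pairs and 53.53 over 10 NoOp pairs. For the same relative difference this chi-square grows with depth, and the NoOp libraries were deeper. It therefore does not tell whether SNx pairs or NoOp pairs were more alike. Separate pieces of a kidney need not agree within counting noise, so these values do not settle whether a rat gave more than 1 library. Ages, and the time, creatinine and proteinuria of each rat, were not analysed here.

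Each SNx library held 19210434 to 30784070 estimated counts and each NoOp library 30454170 to 43876369, and RNA integrity was low in part of the study's samples, with no value per library. The SNx libraries carry numbers in 2 ranges (6 libraries each, SNx 1 to 6 lower and SNx 7 to 12 upper), and all NoOp numbers are in the lower range. No gene differed between the ranges at FDR < 0.05 (0 of 15065, with 777 or 5.16% at an unadjusted p < 0.05, and 0 and 738 by limma-voom), and among the 96 carriers 2 did so at an unadjusted p < 0.05.

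Levels are given as log2 CPM, the log2 of counts per 1000000 counts after TMM scaling with a prior count of 2, in the order NoOp 1 to NoOp 5. Fold changes are log2 fold changes of SNx against NoOp from edgeR's quasi-likelihood test, FDR is its Benjamini-Hochberg adjusted p over the 15438 genes tested, and a gene is called at FDR < 0.05. Each SE was derived from that test, as the absolute log2 fold change divided by the square root of its F statistic. No gene lengths were used, so the level of one gene cannot be set against that of another.

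Among the 92 carriers listed from study 1, 65 were called lower and 21 higher in the remnant kidney, and 6 were not called. Of the 21, Slc7a11 passed the filter on low counts (10 counts, in a library of median size, in 5 libraries) through SNx alone, and without it 20 of 91 were called higher. Their median log2 fold change was -1.04. Over all genes tested, 58% were called, 27.7% lower and 30.3% higher, with a median of 0.02. Of the 1788 other genes tested from the same study 1 list, 705 (39.4%) were called lower and 968 (54.1%) higher, against 65 (70.7%) and 21 (22.8%) of the carriers. In 47 of the 92 every SNx library lay below every NoOp library, and in 12, Slc7a11 among them, every one lay above. Over all genes such separation occurred in 9.6% below and 13.5% above. Among the 1788 other genes of the study 1 list it occurred in 454 below and 757 above.

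Without SNx 1, the library in which most carriers were lowest, 67 were called lower and 21 higher. With the SNx libraries of the lower range alone 56 were called lower and 20 higher, and with those of the upper range alone 64 and 19. Scaling by library size alone left 60 lower and 21 higher, and moved the split over all genes from 4277 lower and 4672 higher to 2403 and 7044, with the median of all genes going from 0.02 to 0.23. No carrier changed the sign of its fold change in any of these settings.

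Since these are whole-kidney libraries, fewer cells of a type and less RNA of a carrier per cell cannot be told apart. The summed level of all 96 carriers was 16682 to 21658 CPM in NoOp and 3433 to 13950 CPM in SNx. All 17 genes of a proximal tubule marker list were called lower too (median -1.63), and their summed level was 32660 to 40910 CPM in NoOp and 2059 to 22696 CPM in SNx. All 6 named fibroblast and matrix markers were called higher (summed level 579.5 to 676 CPM in NoOp, 1906 to 12210 CPM in SNx), as were all 9 named leukocyte markers (75.8 to 113 CPM, and 223 to 557 CPM) and all 8 named markers of injured tubule (839 to 1198 CPM, and 3702 to 17858 CPM). Of 4 named distal and collecting duct markers 2 were called higher and 2 lower. Of glomerular and endothelial markers only Ptpro and Ehd3 had a symbol, both listed from study 2 alone and given without a test. Their mean levels were 6.61 and 6.47 log2 CPM in NoOp and 5.25 and 5.67 in SNx. Named markers are those with a symbol in the study's lists, 6 of 12 fibroblast and matrix, 9 of 11 leukocyte and 8 of 11 injured tubule markers. The markers left out have no values here. Havcr1 is among the injured tubule markers left out, and the study reports its kidney transcript as not significantly raised. Of the 1788 other genes tested from the study 1 list, 93.6% were called (39.4% lower, 54.1% higher). That nearly all named markers were called therefore follows in part from how they were chosen. No named marker of these lists was at 0 in any library. The part of these cell types in the values of the carriers was not tested.

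**Figure D1:**
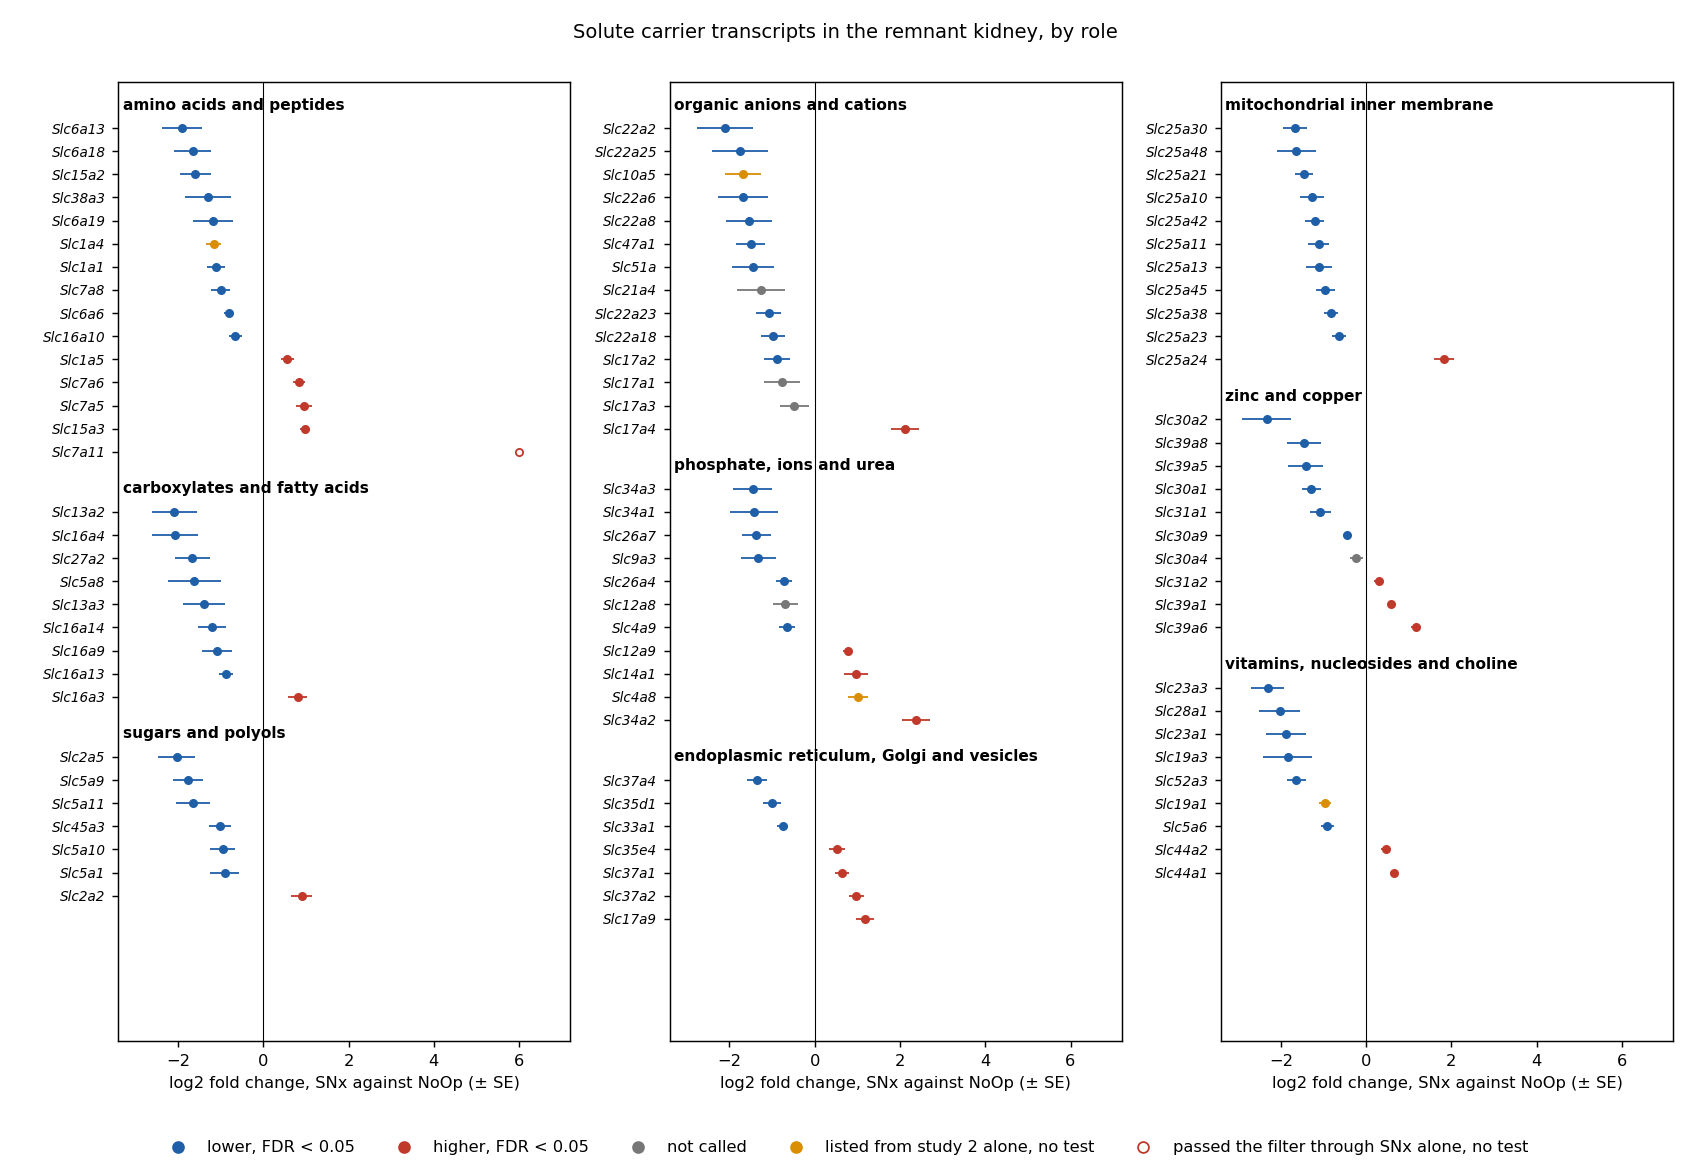
Log2 fold change of 93 of the 96 solute carriers, SNx (12 libraries) against NoOp (5 libraries), in 9 groups by what they carry or where they sit. Bars are 1 SE, derived from the F statistic of the test. Blue points are called lower (63), red points higher (21), grey points were not called (5) and ochre points (4) were listed from study 2 alone and carry no test. Every group holds points on both sides of 0. Slc7a11, hollow and without a bar, passed the filter on low counts through SNx alone, and its place depends on the small count added to each library.

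Phosphate carriers of the Slc34 subfamily moved in opposite directions. Slc34a1, which reabsorbs most filtered phosphate across the brush border and is withdrawn from it by parathyroid hormone, stood at 12.27, 12.39, 12.12, 12.22 and 11.85 log2 CPM in NoOp and from 6.58 in SNx 1 to 11.76 in SNx 11, with a median of 11.03 in SNx. Every SNx library was below every NoOp library, by a narrow margin in SNx 4 and SNx 11 and by more than 5 log2 units in SNx 1. Its log2 fold change was -1.42 ± 0.56 (SE, FDR = 0.0378), and the call was lost when any one of NoOp 1 to 4, SNx 6, SNx 8 or SNx 10 was left out (FDR 0.0504 to 0.0717), in the lower range alone (FDR = 0.0784) and under scaling by library size (FDR = 0.0594), with fold changes from -1.63 to -1.24.

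Slc34a3, the other sodium-phosphate carrier of the proximal brush border, was at 7.04, 7.07, 5.74, 6.96 and 5.67 in NoOp and from 2.67 in SNx 1 to 6.11 in SNx 4, with a median of 5.19 in SNx. The controls themselves split, since NoOp 3 and NoOp 5 were more than 1 log2 unit under the other controls, and 8 of 12 SNx libraries lay below all of them. The fold change was -1.46 ± 0.46 (SE, FDR = 0.0125).

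Slc34a2, the sodium-phosphate carrier of lung and intestinal epithelium, rose. It was at 6.06, 6.14, 6.38, 6.10 and 5.82 in NoOp and from 7.36 in SNx 11 to 9.48 in SNx 5, with a median of 8.17 in SNx, every SNx library above every control. Its fold change of 2.37 ± 0.33 (SE, FDR = 2.16e-05) was the largest of the carriers called higher apart from Slc7a11, and across settings it stayed between 2.04 and 2.63.

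The promoters of these 3 genes are shown because they moved apart while sharing a substrate. Each is 300 bases from the RefSeq annotation of GRCr8, 250 before and 50 after the annotated start, printed 5′ to 3′ on the gene's own strand (minus in all 3). The capital marks the first base from the annotated start. Slc34a1 lies at chr17:9238934-9239233, Slc34a2 at chr14:62143023-62143322 and Slc34a3 at chr3:28447948-28448247.
Slc34a1 promoter: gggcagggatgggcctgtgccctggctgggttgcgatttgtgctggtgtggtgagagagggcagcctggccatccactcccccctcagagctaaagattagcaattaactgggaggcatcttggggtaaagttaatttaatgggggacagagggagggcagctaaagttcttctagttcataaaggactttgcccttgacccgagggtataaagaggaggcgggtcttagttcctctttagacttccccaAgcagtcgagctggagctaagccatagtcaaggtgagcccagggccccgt
Slc34a2 promoter: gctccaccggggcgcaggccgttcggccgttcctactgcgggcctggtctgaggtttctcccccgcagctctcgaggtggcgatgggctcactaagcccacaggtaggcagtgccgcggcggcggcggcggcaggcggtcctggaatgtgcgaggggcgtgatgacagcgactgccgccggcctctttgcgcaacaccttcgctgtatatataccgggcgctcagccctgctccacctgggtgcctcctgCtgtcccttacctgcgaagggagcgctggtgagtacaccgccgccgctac
Slc34a3 promoter: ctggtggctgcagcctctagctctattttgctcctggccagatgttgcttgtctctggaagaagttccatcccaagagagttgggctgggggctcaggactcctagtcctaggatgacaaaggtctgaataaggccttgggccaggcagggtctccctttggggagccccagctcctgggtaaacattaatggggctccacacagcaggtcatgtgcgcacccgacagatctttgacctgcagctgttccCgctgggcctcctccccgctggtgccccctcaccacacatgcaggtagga

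GC content was 54.7% in the Slc34a1 window, 68.3% in Slc34a2 and 58.7% in Slc34a3. Promoters were found by symbol for 73 of the 96 carriers.

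The other ion and urea carriers were mixed, and the whole group of 11 tested held 7 called lower, 3 higher and 1 not called. Slc9a3, the sodium-proton exchanger of the proximal brush border, fell by 1.32 on the log2 scale (FDR = 0.0106), from a NoOp range of 8.01 to 8.40 to an SNx range of 3.73 to 7.63. Anion exchangers of acid-base handling cells were called lower as well. Slc26a7 had a fold change of -1.37 (FDR = 0.00279), Slc26a4 (pendrin of intercalated cells) -0.72 (FDR = 0.00326) and Slc4a9, also of intercalated cells, -0.65 (FDR = 0.00799), which was not called with the SNx libraries of the upper range alone (-0.46, FDR = 0.0896). Of the cation-chloride group, Slc12a9 rose (0.78, FDR = 2.85e-05), and Slc12a8 was not called (-0.69, FDR = 0.051), although it was when NoOp 3, NoOp 5, SNx 1, SNx 2, SNx 3, SNx 4 or SNx 11 was left out (FDR 0.0364 to 0.0494) and by DESeq2, limma-voom, RLE factors and the upper range alone (FDR 0.0319 to 0.0464).

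Slc14a1, the urea carrier of the vasa recta, rose with a fold change of 0.97 (FDR = 0.00832), 10 of 12 SNx libraries above all controls and SNx 5 below them at 2.96, while with the lower range alone it was 0.79 (FDR = 0.0531).

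Slc4a8, a sodium-driven chloride-bicarbonate exchanger listed from study 2 alone, was at 3.45, 3.21, 3.43, 3.21 and 3.57 in NoOp and from 3.27 in SNx 11 to 5.01 in SNx 10, with a median of 4.35 in SNx. Only SNx 11 overlapped the controls.

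Among 7 sugar and polyol carriers, 6 were called lower and Slc2a2 alone higher. Slc2a5, the fructose carrier, was at 6.12, 6.65, 6.74, 6.42 and 6.37 in NoOp and from 1.87 in SNx 1 to 5.61 in SNx 11, with a median of 4.36 in SNx. No SNx library reached the controls, and the fold change was -2.03 ± 0.43 (SE, FDR = 0.000948). Slc5a9, a sodium-coupled carrier of mannose and related sugars, was at 5.77, 5.79, 6.35, 5.86 and 5.88 in NoOp, with NoOp 3 above the rest, and from 2.10 in SNx 1 to 5.12 in SNx 4, with a median of 4.39 in SNx. The groups did not overlap, with a fold change of -1.77 ± 0.36 (SE, FDR = 0.000624).

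Slc5a1, the high-affinity sodium-glucose carrier of the late proximal tubule, changed less, with 5.83, 5.999, 5.46, 5.69 and 5.62 in NoOp and from 2.69 in SNx 1 to 5.49 in SNx 2, with a median of 4.87 in SNx. SNx 2 and SNx 11 overlapped the controls and 10 of 12 lay below. The fold change of -0.90 ± 0.34 (SE, FDR = 0.0314) was no longer called without NoOp 1, NoOp 2 or NoOp 4 (FDR 0.0513 to 0.0729), with the lower range alone (FDR = 0.0833) or under library size scaling (FDR = 0.0698).

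Slc2a2, the basolateral glucose carrier through which reabsorbed glucose leaves the proximal cell, went the other way. It was at 5.78, 5.48, 5.41, 5.81 and 4.56 in NoOp, with NoOp 5 lowest, and from 5.64 in SNx 10 to 7.24 in SNx 5, with a median of 6.15 in SNx, 11 of 12 above all controls, for a fold change of 0.91 ± 0.24 (SE, FDR = 0.00469). The remaining members fell without values by library, Slc5a11 (myo-inositol) with -1.66 (FDR = 0.00219), Slc5a10 (mannose and fructose) with -0.95 (FDR = 0.00919) and Slc45a3 with -1.01 (FDR = 0.00305).

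Of the amino acid and peptide carriers, 9 of 14 were called lower and 5 higher, the 5 counting Slc7a11, which passed the filter on low counts through SNx alone. The apical carriers of the proximal tubule fell. Slc6a18, a sodium-coupled carrier of glycine and other neutral amino acids, was at 9.54, 9.70, 9.32, 9.59 and 9.39 in NoOp and from 5.42 in SNx 5 to 8.99 in SNx 4, with a median of 7.75 in SNx, with no overlap and a fold change of -1.65 ± 0.43 (SE, FDR = 0.00407). Slc6a19, the main neutral amino acid carrier of the brush border and the gene of Hartnup disorder, was at 7.34, 7.35, 5.98, 7.17 and 6.03 in NoOp and from 3.16 in SNx 1 to 6.80 in SNx 3, with a median of 5.63 in SNx. Here too NoOp 3 and NoOp 5 lay over 1 log2 unit under the other controls, only 6 of 12 SNx libraries were below them all, and the fold change of -1.18 ± 0.47 (SE, FDR = 0.0411) was lost without NoOp 1, NoOp 2, NoOp 4, SNx 2, SNx 5, SNx 6 or SNx 8 (FDR 0.0539 to 0.100), within either range and under library size scaling (FDR 0.0677 to 0.0868).

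Slc6a13, a carrier of GABA and taurine, was at 6.44, 6.35, 6.07, 6.65 and 5.93 in NoOp and from 1.39 in SNx 1 to 5.42 in SNx 11, with a median of 4.44 in SNx, and had the lowest fold change of the group, -1.90 ± 0.47 (SE, FDR = 0.0026), without overlap. Slc1a1, the apical glutamate and aspartate carrier, fell by 1.11 on the log2 scale (FDR = 0.000384), the apical peptide carrier Slc15a2 by 1.59 (FDR = 0.00143), the taurine carrier Slc6a6 by 0.81 (FDR = 1.58e-05), each with every SNx library below the controls, and the aromatic amino acid carrier Slc16a10 by 0.66 (FDR = 0.00177). Slc38a3, the glutamine carrier that feeds ammonia production, had a fold change of -1.30 (FDR = 0.0477), a call that was lost in 12 of 17 fits that left out 1 library (all but those without SNx 1, SNx 2, SNx 4, SNx 5 or SNx 11, FDR 0.0520 to 0.108), and with the lower range alone, library size scaling or no filter on low counts (FDR 0.0531 to 0.110).

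In the Slc7 subfamily 1 member was called lower and 3 higher, counting Slc7a11, for which no test is given. Slc7a8, the basolateral exchanger of large neutral amino acids in the proximal tubule, was at 7.92, 8.13, 6.85, 7.71 and 7.01 in NoOp and from 5.68 in SNx 10 to 7.18 in SNx 4, with a median of 6.56 in SNx, with NoOp 3 and NoOp 5 again low and 9 of 12 SNx libraries below all controls (fold change -1.0004 ± 0.23 SE, FDR = 0.0015). Slc7a5, the exchanger of the same substrates in proliferating and activated cells, was at 3.46, 3.51, 3.22, 3.20 and 3.30 in NoOp and from 3.67 in SNx 4 to 4.93 in SNx 1, with a median of 4.24 in SNx. Every SNx library was above the controls, and the fold change was 0.96 ± 0.18 (SE, FDR = 0.000357). Slc7a6, a related exchanger of cationic and neutral amino acids, rose as well, by 0.84 (FDR = 0.000162).

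Slc7a11, the cystine-glutamate exchanger that supplies cysteine for glutathione, was close to absent in the controls and is described although its mean was below 1 log2 CPM, a choice made after its values were seen. It had 2, 2, 0, 1 and 1 counts in NoOp 1 to 5 and between 20 and 141 counts in the SNx libraries, 788 against 6 in all. Per count sequenced this was a ratio of 79.5 (95% exact interval 36.4 to 217, counting error only). Since it passed the filter on low counts through the SNx libraries alone, it had to differ, and no test is given for it.

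Slc15a3, a lysosomal carrier of histidine and peptides known from macrophages, was at 4.07, 3.81, 3.75, 3.91 and 3.80 in NoOp and from 4.50 in SNx 6 to 5.15 in SNx 12, with a median of 4.85 in SNx. All 12 were above the controls, with a fold change of 0.99 ± 0.12 (SE, FDR = 4.77e-06), and the leukocyte markers given above rose in the same libraries. Slc1a5, a carrier of glutamine and other neutral amino acids, rose by 0.56 (FDR = 0.00357). Its relative Slc1a4, listed from study 2 alone, was at 4.96, 4.96, 5.20, 4.93 and 5.06 in NoOp and from 3.12 in SNx 10 to 4.40 in SNx 4, with a median of 3.67 in SNx, without overlap.

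Of the 10 carriers of carboxylates and fatty acids, 9 were called lower and Slc16a3 higher. Slc13a2, the brush border carrier of citrate and other dicarboxylates, was at 7.27, 7.39, 6.94, 7.34 and 6.71 in NoOp and from 1.56 in SNx 1 to 6.29 in SNx 11, with a median of 5.08 in SNx. The groups did not overlap, and the fold change was -2.09 ± 0.53 (SE, FDR = 0.00309). Slc13a3, its basolateral relative, was at 10.92, 11.12, 10.44, 10.90 and 10.51 in NoOp and from 6.13 in SNx 1 to 10.52 in SNx 4, with a median of 9.41 in SNx, 11 of 12 below the controls. The fold change of -1.38 ± 0.49 (SE, FDR = 0.0234) was not called without NoOp 2 (-1.30, FDR = 0.0536) or with the lower range alone (-1.38, FDR = 0.0686).

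Slc5a8, the sodium-coupled carrier of lactate and ketone bodies, showed one of the widest spreads in SNx. It was at 5.94, 6.45, 6.40, 6.48 and 6.11 in NoOp and from -0.42 in SNx 1 to 6.04 in SNx 11, with a median of 4.35 in SNx, where only SNx 11 overlapped the controls. The fold change was -1.62 ± 0.62 (SE, FDR = 0.0336), lost without NoOp 2, NoOp 3 or NoOp 4 (FDR 0.0581 to 0.0635) and in the lower range alone (FDR = 0.0652).

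Monocarboxylate carriers of the Slc16 subfamily fell in 6 of 7 members. Slc16a4 was at 6.68, 6.80, 7.12, 6.91 and 6.78 in NoOp and from 1.33 in SNx 1 to 6.23 in SNx 11, with a median of 4.76 in SNx, without overlap (fold change -2.07 ± 0.54 SE, FDR = 0.00368). Slc16a14, Slc16a9 and Slc16a13 had fold changes of -1.20 (FDR = 0.0052), -1.08 (FDR = 0.0149) and -0.87 (FDR = 0.000376), that of Slc16a9 not called without NoOp 2 (-0.93, FDR = 0.0510).

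Slc16a3, which exports lactate from glycolytic cells, was at 2.59, 2.97, 2.70, 2.75 and 3.13 in NoOp and from 3.04 in SNx 11 to 4.54 in SNx 5, with a median of 3.44 in SNx. All but SNx 11 were above the controls, SNx 1 and SNx 5 by the most, and the fold change was 0.81 ± 0.22 (SE, FDR = 0.00545). Slc27a2, which takes up and activates very long chain fatty acids, fell by 1.66 on the log2 scale (FDR = 0.00254) with no overlap.

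Carriers of organic anions and cations, by which the proximal tubule clears drugs, toxins and urate, held 9 of 14 called lower, Slc17a4 higher, and 4 of the 6 carriers not called. Slc22a6 and Slc22a8, the basolateral organic anion exchangers, were among the most affected in single libraries. Slc22a6 was at 10.16, 10.42, 10.04, 10.49 and 10.0002 in NoOp and from 3.89 in SNx 1 to 9.41 in SNx 4, with a median of 8.80 in SNx, and Slc22a8 at 9.20, 9.37, 8.63, 9.23 and 8.46 in NoOp and from 4.002 in SNx 1 to 8.33 in SNx 3, with a median of 7.66 in SNx. Neither overlapped the controls, and the fold changes were -1.68 ± 0.59 (SE, FDR = 0.0212) and -1.55 ± 0.54 (SE, FDR = 0.0211). With the lower range alone neither was called (-1.80, FDR = 0.0688, and -1.59, FDR = 0.0541).

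Slc22a2, the basolateral carrier of organic cations, ranged over more than 6 log2 units among the SNx libraries. It was at 9.01, 9.13, 9.44, 9.31 and 9.33 in NoOp and from 2.16 in SNx 1 to 8.49 in SNx 11, with a median of 6.83 in SNx, with no overlap and a fold change of -2.10 ± 0.66 (SE, FDR = 0.0118). Slc22a25, an organic anion carrier of the same subfamily, had the widest spread of all members, an SD of 2.26 in SNx against 0.18 in NoOp. It was at 6.56, 6.501, 6.53, 6.65 and 6.18 in NoOp and from -0.85 in SNx 1 to 5.97 in SNx 11, with a median of 4.66 in SNx, none overlapping, and its fold change of -1.76 ± 0.66 (SE, FDR = 0.031) was not called without NoOp 1, NoOp 2, NoOp 3 or NoOp 4 (FDR 0.0515 to 0.0578) or with the lower range alone (FDR = 0.0713).

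The apical exporter Slc47a1 of organic cations had a fold change of -1.50 (FDR = 0.00164), Slc51a, a subunit of the basolateral bile acid and steroid carrier, -1.45 (FDR = 0.0176), Slc22a23 -1.08 (FDR = 0.00425) and Slc22a18 -0.98 (FDR = 0.00863). Slc21a4, an anion carrier whose symbol is an older one of the Slco family, was not called (-1.26, FDR = 0.0676), although it was without SNx 1, SNx 9 or SNx 11 (FDR 0.0205 to 0.0491), in the lower range alone and by both limma fits (FDR 0.0250 to 0.0428). Its counts may hold reads of close Slco relatives. Slc10a5, of the bile acid carrier subfamily and listed from study 2 alone, was at 4.94, 5.0004, 5.01, 4.81 and 5.15 in NoOp and from 0.40 in SNx 1 to 4.21 in SNx 11, with a median of 3.26 in SNx, without overlap.

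The Slc17 genes form a row of neighbours on the chromosome, Slc17a4, Slc17a1, Slc17a3 and Slc17a2 in that order in GRCr8, and did not move together. Slc17a4, a urate and organic anion carrier known from intestine, was at 2.96, 2.62, 1.93, 2.23 and 1.69 in NoOp and from 3.41 in SNx 4 to 5.16 in SNx 5, with a median of 4.44 in SNx. Every SNx library was above the controls, for a fold change of 2.12 ± 0.33 (SE, FDR = 6.98e-05). Next to it, Slc17a1, a urate and phosphate carrier of the proximal brush border, was at 5.45, 5.30, 5.65, 5.53 and 5.02 in NoOp and from 1.86 in SNx 1 to 5.48 in SNx 2, with a median of 4.65 in SNx, with 8 of 12 below the controls, SNx 1 far below, and no call (-0.77 ± 0.43 SE, FDR = 0.127). Slc17a3, a urate exporter, was at 7.85, 7.74, 7.80, 7.58 and 7.18 in NoOp and from 5.11 in SNx 1 to 7.98 in SNx 2, with a median of 7.22 in SNx. It had 5 SNx libraries below and 1 above all controls, and was not called either (-0.48 ± 0.34 SE, FDR = 0.229). Slc17a2 was called lower (-0.88, FDR = 0.0207), but not with the lower range alone (-0.98) or under library size scaling (-0.69, with FDR 0.0555 and 0.0511).

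The neighbours Slc6a19 and Slc6a18, and the row Slc22a25, Slc22a8 and Slc22a6, were by contrast all called lower. Transcript quantification divides reads among close relatives, and the near copies in the Slc17 and Slc22 clusters are uncertain to that extent.

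Carriers of the inner mitochondrial membrane, all of the Slc25 subfamily, fell in 10 of 11 members, and Slc25a24 rose. Slc25a30 was at 7.29, 7.96, 7.83, 8.01 and 8.10 in NoOp and from 4.59 in SNx 1 to 7.22 in SNx 11, with a median of 6.004 in SNx. SNx 11 came close to NoOp 1 without reaching it, and the fold change was -1.67 ± 0.29 (SE, FDR = 0.000194). Slc25a48 was at 5.39, 5.54, 5.46, 5.55 and 5.88 in NoOp and from 0.50 in SNx 1 to 4.79 in SNx 11, with a median of 4.02 in SNx, with no overlap (-1.64 ± 0.46 SE, FDR = 0.00645).

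The pair of carriers that exchange ATP-magnesium for phosphate under the control of calcium parted. Slc25a23 was at 7.75, 7.77, 7.42, 7.59 and 7.44 in NoOp and from 5.85 in SNx 1 to 7.38 in SNx 11, with a median of 6.98 in SNx, just below the controls at its highest, with a fold change of -0.63 ± 0.16 (SE, FDR = 0.00413). Slc25a24 was at 2.97, 2.37, 2.62, 3.01 and 3.05 in NoOp and from 3.91 in SNx 4 to 5.33 in SNx 5, with a median of 4.52 in SNx, all 12 above the controls by more than 0.8 log2 units, with 1.83 ± 0.24 (SE, FDR = 1.21e-05).

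The others were called lower in a narrow band. They were the oxodicarboxylate carrier Slc25a21 with -1.46 (FDR = 5.22e-05), the dicarboxylate carrier Slc25a10 with -1.27 (FDR = 0.00147), the coenzyme A carrier Slc25a42 with -1.21 (FDR = 0.000246), the oxoglutarate carrier Slc25a11 with -1.12 (FDR = 0.000975), the aspartate-glutamate carrier Slc25a13 with -1.10 (FDR = 0.00601), Slc25a45 with -0.96 (FDR = 0.00234) and the glycine carrier Slc25a38 with -0.82 (FDR = 0.000416). In 9 of the 11 every SNx library was below every control, and in Slc25a13 SNx 11 alone overlapped.

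Carriers of vitamins and nucleosides had the lowest median fold change of the 9 groups, -1.74 over 8 tested, with 6 called lower, and the 2 choline carriers in the group were called higher. Slc23a3, an orphan relative of the ascorbate carriers, was at 6.35, 6.53, 6.29, 6.75 and 6.44 in NoOp and from 2.31 in SNx 5 to 5.32 in SNx 4, with a median of 3.61 in SNx. No SNx library came within 0.9 log2 units of the controls, and the fold change of -2.31 ± 0.39 (SE, FDR = 0.000155) was the lowest among all members apart from Slc30a2. Slc28a1, the concentrative carrier of pyrimidine nucleosides, was at 6.04, 6.09, 5.82, 6.15 and 5.87 in NoOp and from 0.64 in SNx 1 to 5.11 in SNx 4, with a median of 4.09 in SNx, without overlap (-2.03 ± 0.47 SE, FDR = 0.00185).

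Slc23a1, which reabsorbs ascorbate, had a fold change of -1.87 (FDR = 0.00308), the thiamine carrier Slc19a3 -1.84 (FDR = 0.0119), the riboflavin carrier Slc52a3 -1.63 (FDR = 1.29e-05) and Slc5a6, the sodium-coupled carrier of biotin and pantothenate, -0.91 (FDR = 0.000179). In all 4 every SNx library was below the controls. Slc19a3 was down to 1 count in SNx 1, where NoOp libraries had 206 to 369. Slc19a1, the reduced folate carrier listed from study 2 alone, was at 7.38, 7.59, 7.29, 7.47 and 7.51 in NoOp and from 5.81 in SNx 1 to 6.996 in SNx 4, with a median of 6.49 in SNx, also without overlap.

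Slc44a1, a choline carrier of most cells, was at 6.60, 6.41, 6.40, 6.31 and 6.25 in NoOp and from 6.68 in SNx 4 to 7.25 in SNx 1, with a median of 7.04 in SNx. All 12 were above the controls but by little, and the fold change was 0.65 ± 0.08 (SE, FDR = 1.24e-05). Slc44a2 was at 6.02, 5.82, 5.77, 5.73 and 5.75 in NoOp and from 5.93 in SNx 4 to 6.82 in SNx 1, with a median of 6.24 in SNx, 10 of 12 above (0.46 ± 0.12 SE, FDR = 0.00438).

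Zinc and copper carriers were lower in 6 of 10, higher in 3, and Slc30a4, which loads zinc into vesicles, was not called (-0.23, FDR = 0.21). Slc30a2, another vesicular zinc carrier, was at 5.15, 5.46, 5.09, 5.20 and 5.25 in NoOp and from -0.85 in SNx 1 to 4.24 in SNx 11, with a median of 2.94 in SNx, with no overlap. Its fold change of -2.33 ± 0.57 (SE, FDR = 0.00268) was the lowest of the 96. Slc39a8, an importer of zinc and manganese, was at 6.08, 6.22, 6.24, 5.96 and 6.31 in NoOp and from 2.95 in SNx 10 to 5.81 in SNx 11, with a median of 4.64 in SNx. The groups did not overlap, and the fold change was -1.46 ± 0.39 (SE, FDR = 0.00471).

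The importers Slc39a6 and Slc39a1 of the same subfamily rose. Slc39a6 was at 3.45, 3.31, 3.45, 3.48 and 3.48 in NoOp and from 4.24 in SNx 11 to 5.04 in SNx 1, with a median of 4.56 in SNx, all 12 above, and had the smallest FDR of the carriers (fold change 1.17 ± 0.12 SE, FDR = 1.51e-06). Slc39a1 was at 6.65, 6.92, 6.63, 6.85 and 6.79 in NoOp and from 7.01 in SNx 10 to 7.62 in SNx 5, with a median of 7.35 in SNx, a small but complete separation (0.59 ± 0.09 SE, FDR = 4.34e-05). Slc39a5, an importer of epithelial cells, fell (-1.42, FDR = 0.00836).

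Slc30a1, which exports zinc across the plasma membrane, had a fold change of -1.28 (FDR = 0.00012) and Slc30a9 one of -0.45 (FDR = 0.000237). The copper importer Slc31a1 fell (-1.07, FDR = 0.00194) and its relative Slc31a2 rose slightly (0.29, FDR = 0.026), a call lost without NoOp 1, NoOp 2 or NoOp 3 (FDR 0.0518 to 0.0957) and with the upper range alone (FDR = 0.0851).

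Carriers of the endoplasmic reticulum, Golgi and vesicles were the only group with a positive median, 0.53, with 4 called higher and 3 lower. Slc37a4, which brings glucose 6-phosphate into the endoplasmic reticulum for gluconeogenesis, was at 7.72, 7.93, 7.79, 8.004 and 7.74 in NoOp and from 5.36 in SNx 1 to 7.21 in SNx 11, with a median of 6.40 in SNx. The groups did not overlap, and the fold change was -1.35 ± 0.24 (SE, FDR = 0.000194). Its relatives rose, Slc37a2 from 2.84, 2.36, 2.39, 2.44 and 2.10 in NoOp to a range from 2.89 in SNx 11 to 3.98 in SNx 1, with a median of 3.40 in SNx, with all 12 above the controls (0.98 ± 0.18 SE, FDR = 0.000271), and Slc37a1 with 0.65 (FDR = 0.00353).

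Slc35d1, a Golgi and reticulum carrier of UDP-glucuronic acid and other nucleotide sugars, was at 5.89, 6.10, 5.97, 6.28 and 5.95 in NoOp and from 4.10 in SNx 1 to 5.80 in SNx 11, with a median of 4.89 in SNx, the top value just under the controls (-1.01 ± 0.21 SE, FDR = 0.00078). Slc35e4 of the same subfamily had a fold change of 0.53 (FDR = 0.0219), not called without NoOp 1, NoOp 2 or NoOp 4 (FDR 0.0507 to 0.0632) or with the upper range alone (FDR = 0.0581). Slc33a1, the acetyl coenzyme A carrier, fell (-0.75, FDR = 0.000159). Slc17a9, which loads ATP into vesicles, was at 1.56, 1.22, 2.11, 1.79 and 1.12 in NoOp and from 2.10 in SNx 9 to 3.53 in SNx 1, with a median of 2.78 in SNx, 11 of 12 above (1.18 ± 0.22 SE, FDR = 0.000309).

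Many subfamilies did not move in one direction. Of the 34 subfamilies with a member listed from study 1, 21 had 2 or more, and 13 of those held members called lower and members called higher. With 70.7% of the carriers called lower and 22.8% higher, groups of any kind can hold both. The number expected by chance was not computed, so the 13 are a description and not a trait of subfamilies. Slc17, Slc31 and Slc35 count through Slc17a2, Slc31a2 and Slc35e4, whose calls were lost in some settings. Among them are Slc1, Slc2, Slc7, Slc15, Slc16, Slc17, Slc25, Slc31, Slc34, Slc35, Slc37 and Slc39. All 6 tested members of Slc5 and all 4 of Slc6 were called lower, as were 6 of 7 in Slc22, with 1 not called, and both members of Slc44 were called higher. Subfamilies are grouped by sequence and not by tissue, and the members share every library.

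**Figure D2:**
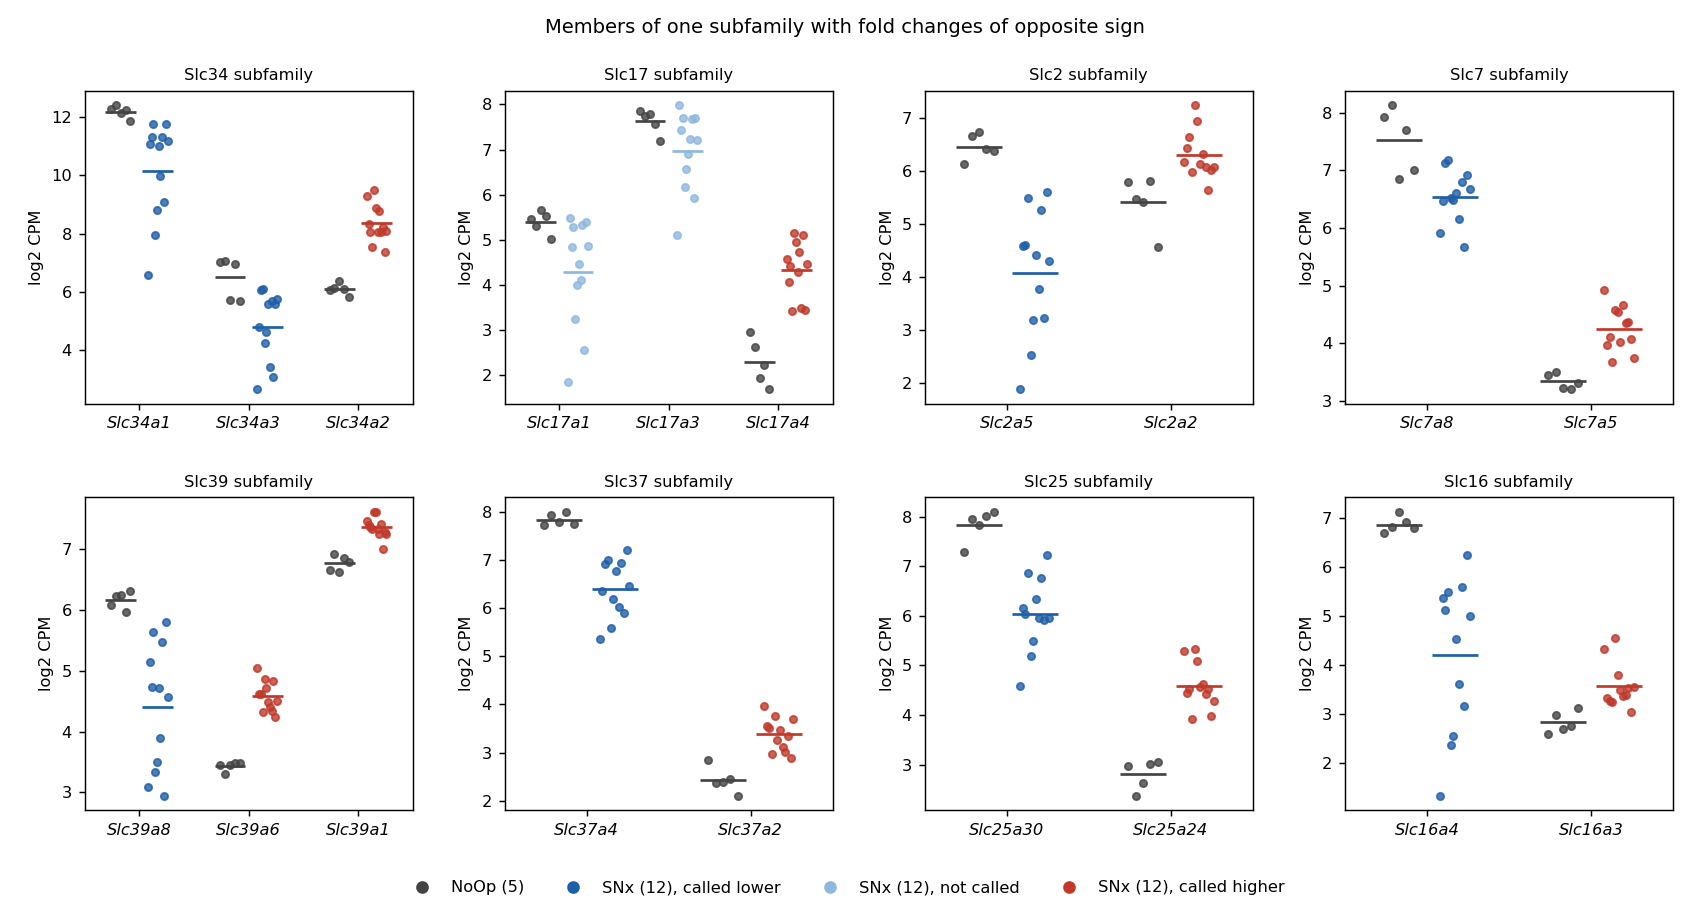
Log2 CPM of each library for members of 8 subfamilies with fold changes of opposite sign, NoOp in dark grey (5 points) beside SNx (12 points), with the group mean as a bar. Dark blue SNx points belong to genes called lower, pale blue to genes not called (Slc17a1 and Slc17a3) and red to genes called higher. The SNx points of Slc34a1 run down to 6.58 while those of Slc34a2 lie between 7.36 and 9.48, above its controls.

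The SNx libraries differed from one another more than the controls did. In 88 of the 92 carriers (95.7%) the SD over SNx libraries was larger than that over NoOp libraries, which held for 81.9% of all genes tested and for 90.5% of the other genes listed from study 1. The 4 exceptions were Slc17a9, Slc2a2, Slc6a6 and Slc7a8. The median SD was 0.70 in SNx and 0.20 in NoOp, against 0.29 and 0.17 over all genes. Over the other genes listed from study 1 it was 0.45 in SNx and 0.19 in NoOp. Carriers called lower had a median SD of 0.90 in SNx (0.61 in the other study 1 genes called lower). Carriers called higher had one of 0.35 (0.40 in the other study 1 genes called higher). The widest were Slc22a25 (2.26), Slc22a2 (2.02) and Slc5a8 (1.93), and the narrowest of those called lower were Slc30a9 (0.17) and Slc6a6 (0.18).

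**Figure D3:**
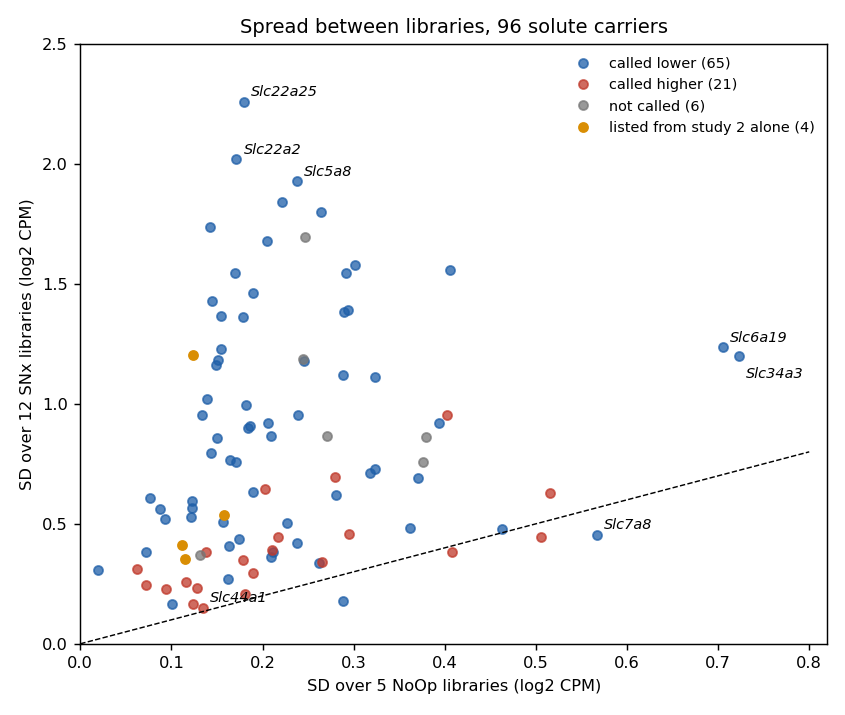
SD of log2 CPM over the 12 SNx libraries (vertical axis) against SD over the 5 NoOp libraries (horizontal axis) for the 96 carriers, coloured by call, with a dashed line where both are equal. Only 4 points lie under the line, among them Slc7a8, and Slc22a25 lies highest at 2.26.

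That spread was shared. For the 65 carriers called lower, SNx 1 held the lowest SNx value in 54, followed by SNx 5 with 6, SNx 10 with 4 and SNx 6 with 1, and SNx 11 held the highest value in 36 and SNx 4 that of 18. The median difference of the 65 from their NoOp means was lowest in SNx 1 with -3.16 log2 units, followed by SNx 5 with -2.33, SNx 10 with -2.14, SNx 6 with -1.85 and SNx 8 with -1.77. SNx 2, SNx 3, SNx 7 and SNx 12 lay between -1.22 and -0.93. The difference was smallest in SNx 9 with -0.72, SNx 4 with -0.61 and SNx 11 with -0.51. All 65 were below every control in SNx 1, SNx 5 and SNx 6, and 54 of 65 were in SNx 4 and SNx 11. The 65 were called on these same libraries, so lying below the controls is part of their choice. All SNx libraries lay below all controls in 47 of the 65, and in 1481 of all 4277 genes called lower. Counts for single libraries were not made over all genes, so whether this order is particular to carriers was not tested.

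The 21 carriers called higher, Slc7a11 among them, ran in the opposite order at both ends. Their median difference was largest in SNx 1 (1.27) and SNx 5 (1.20) and smallest in SNx 4 (0.56) and SNx 11 (0.52). SNx 1 held the highest value in 9 and SNx 5 in 7, and SNx 4 the lowest in 7 and SNx 11 in 6.

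The summed levels of proximal and injured tubule markers were far apart between the libraries at the ends of this order. The proximal tubule markers summed to 2059 CPM in SNx 1, the lowest, and to no more than 4595 CPM in SNx 5 and SNx 10, while SNx 4 reached 21154 CPM and SNx 11 22696 CPM. The injured tubule markers summed to 11920 CPM in SNx 1 and 17858 CPM in SNx 5, against 4246 and 3702 CPM in SNx 4 and SNx 11. Between the ends they departed from it, with the injured tubule markers at 9023 CPM in SNx 10 and 10988 CPM in SNx 12. The fibroblast and matrix markers followed this order in part. They were highest in SNx 1 (12210 CPM) and SNx 5 (3968 CPM), and low in SNx 4 (2300 CPM), SNx 9 (2283 CPM) and SNx 11 (2205 CPM). The leukocyte markers were at 557 and 456 CPM in SNx 1 and SNx 5, and at 266 and 244 CPM in SNx 4 and SNx 11. Both lists were lowest in SNx 8 (1906 and 223 CPM), although SNx 8 was among the 5 libraries with the lowest carriers. For fibroblast and matrix markers, SNx 6 (2705 CPM) and SNx 10 (3003 CPM) also lay below SNx 2 (3129 CPM) and SNx 3 (3394 CPM). The part of these markers in the spread of the carriers was not tested.

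**Figure D4:**
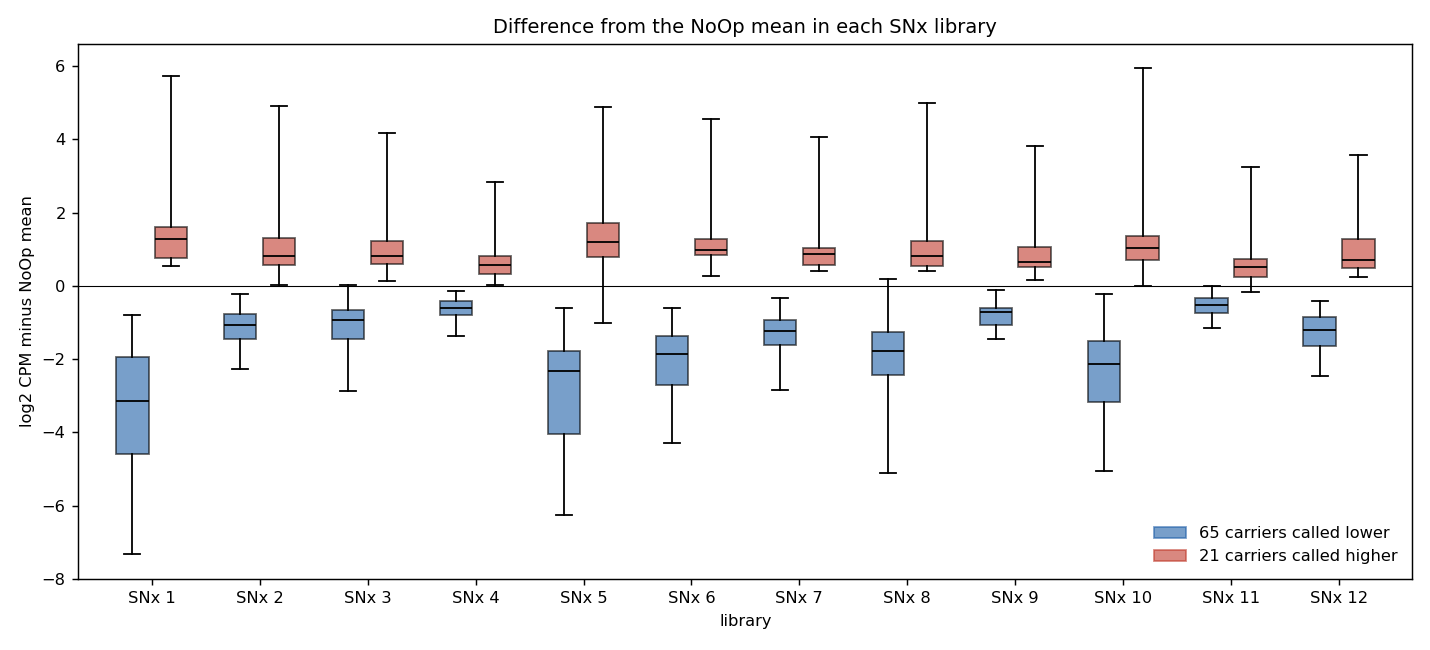
Difference of each carrier from its NoOp mean (log2 CPM) in each of the 12 SNx libraries, for the 65 carriers called lower (blue) and the 21 called higher (red). The 21 include Slc7a11, which passed the filter on low counts through SNx alone. Boxes span the quartiles with the median as a line, and whiskers reach the lowest and highest carrier. SNx 1 has the lowest blue median (-3.16) and the highest red one (1.27), and SNx 11 the blue median nearest to 0 (-0.51).

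Across the 12 SNx libraries the carriers called lower rose and fell together. As a description over libraries that share depth and composition, the median Pearson r over all 2080 pairs of these 65 was 0.88 (quartiles 0.79 and 0.94), where over all pairs of the 4277 genes called lower it was 0.58. Between carriers called lower and carriers called higher the median r was -0.70, against -0.44 between all genes called lower and all called higher. These sets are unlike. The 65 had a median fold change of -1.32 and a median SD of 0.90 in SNx, against -0.56 and 0.31 for all genes called lower. The other genes of the study 1 list were not compared in this way, so whether the closer relation is particular to carriers was not tested.

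Some stood outside this pattern. Slc4a9 and Slc26a4 of intercalated cells had median r of 0.23 and 0.34 with the other carriers called lower, and Slc6a6, the taurine carrier, one of 0.33, while Slc2a5 (0.94), Slc13a2 (0.94) and Slc27a2 (0.94) were the closest to the rest. Among carriers called higher, Slc35e4 (-0.90), Slc34a2, Slc39a6 and Slc25a24 (-0.86, -0.86 and -0.85) ran most against the carriers called lower. Slc39a1 (-0.27), Slc15a3 (-0.29), Slc2a2 (-0.31) and Slc1a5 (-0.39) did so weakly, and Slc14a1 ran with them (0.27).

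In 8 pairs that share a kind of substrate, written down with earlier results of these data known, the relation across SNx libraries was measured with two-sided permutation tests (100000 resamples, Benjamini-Hochberg over the 8, 12 libraries each). The smallest p these can give is 1e-05 before adjustment. They test against no relation, from which carriers called lower depart as a set (median r 0.88 over all pairs). A small p therefore does not show a link particular to a pair. Slc34a1 and Slc34a2 ran opposite, with Pearson r = -0.89 (adjusted p = 0.00034) and Spearman rho = -0.94 (adjusted p = 4e-05), r = -0.93 within the lower range and -0.68 within the upper. Without SNx 1 and SNx 5, the libraries farthest from the median of Slc34a1, r was -0.79 (permutation p = 0.00764). Slc34a1 and Slc34a3 ran together (r = 0.84, adjusted p = 0.00194, rho = 0.82, adjusted p = 0.0033, and 0.81 without the same libraries, 0.93 and 0.94 within the ranges).

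The organic anion pair Slc22a6 and Slc22a8 was tightly linked (r = 0.97, adjusted p = 8e-05, rho = 0.95, adjusted p = 4e-05, 0.98 without SNx 1 and SNx 5, 0.999 and 0.993 within the ranges). The same held for Slc17a1 and Slc17a3 (r = 0.98, adjusted p = 8e-05, rho = 0.96, adjusted p = 4e-05, 0.95 without SNx 1 and SNx 10, 0.996 and 0.956 within the ranges) and for Slc13a2 and Slc13a3 (r = 0.93, adjusted p = 0.000213, rho = 0.96, adjusted p = 4e-05, 0.89 without SNx 1 and SNx 5, 0.97 and 0.96 within the ranges).

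Slc6a18 and Slc6a19 were less closely linked (r = 0.72, adjusted p = 0.0121, rho = 0.66, adjusted p = 0.0296, 0.68 without SNx 1 and SNx 5, 0.77 and 0.80 within the ranges), and without SNx 1 alone r was 0.61 with an adjusted permutation p of 0.0530. For Slc7a5 and Slc7a8, r was -0.65 (adjusted p = 0.0246) and rho -0.63 (adjusted p = 0.0376), -0.82 and -0.53 within the ranges. It rested on SNx 1 and SNx 4, without which r was -0.41 (permutation p = 0.239), and left out singly they gave -0.55 and -0.56. Slc2a2 and Slc5a1 showed no relation past the threshold (r = -0.41, adjusted p = 0.180, rho = -0.42, adjusted p = 0.177, -0.29 and -0.54 within the ranges), although without SNx 1 r was -0.63 (adjusted permutation p = 0.0485), and without SNx 5 and SNx 6 it was -0.00744. The signs follow the common pattern of carriers called lower and higher given above. The r of Slc34a1 and Slc34a3 and that of Slc6a18 and Slc6a19 lay under the median of 0.88 over all pairs called lower. Those of Slc22a6 with Slc22a8 and Slc13a2 with Slc13a3 lay above it. The r of -0.89 for Slc34a1 and Slc34a2 stood beside a median of -0.86 between Slc34a2 and the carriers called lower.

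**Figure D5:**
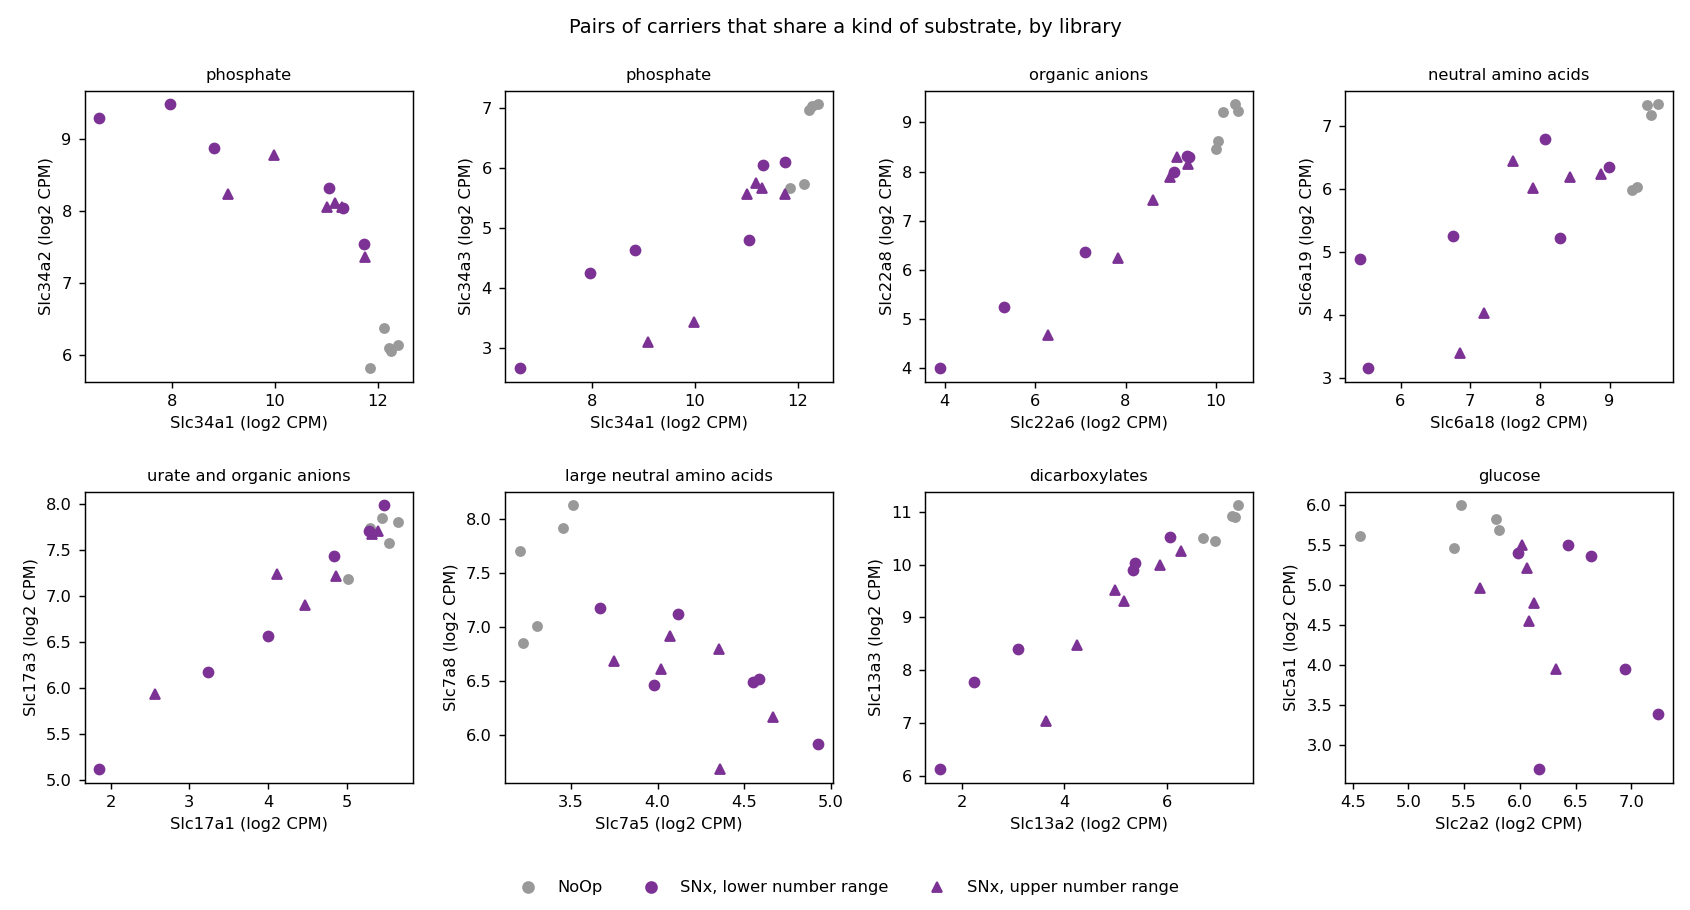
Log2 CPM of 8 pairs of carriers, one point per library, with SNx libraries in purple (circles for the lower and triangles for the upper range of numbers, 6 each) and NoOp libraries in grey (5). In the Slc34a1 and Slc34a2 panel the SNx points fall from upper left to lower right (r = -0.89), with the controls at the lower right end, and in the Slc22a6 and Slc22a8 panel they lie close to a line (r = 0.97).

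The controls were not uniform either. NoOp 3 and NoOp 5 held the lowest levels of the 5 controls in 32 of the 96 carriers (33.3%), where the same held for 13.1% of all genes tested. In 7 carriers both were more than 0.5 log2 units under the other controls, among them Slc34a3, Slc6a19, Slc7a8, Slc22a8, Slc22a23 and Slc12a8, of which Slc22a23 was called lower and Slc12a8 was not called. The gap was 1.23 log2 units in Slc34a3 and 1.14 in Slc6a19, beside which the fold changes of these genes were -1.46 and -1.18. These genes were chosen after their values were seen.

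Genes that work beside these carriers were counted from lists written by hand, of which part had a symbol. Those with a symbol were in the study's lists, where 93.6% of the other genes from study 1 were called. The counts that follow therefore rest in part on that choice. All 6 named peptidases of the brush border were called lower, among them Dpp4 with -1.26 (FDR = 0.000404), Ace with -0.86 (FDR = 0.000758) and Anpep with -1.91 (FDR = 0.0034). Of 7 named partner and scaffold proteins 6 were called lower. They include Ush1c, a brush border scaffold, with -0.96 (FDR = 0.000812), Vil1, which bundles microvillar actin, with -0.60 (FDR = 0.00418) and Slc3a1, the heavy chain of the cystine carrier, with -1.73 (FDR = 0.00443), and Tmem27, the partner that brings Slc6a19 to the membrane, was not called (-1.10, FDR = 0.0526).

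Of 6 named organic anion carriers of the Slco family 4 were called lower, such as Slco4c1 with -1.90 (FDR = 0.00194) and Slco2a1 with -0.93 (FDR = 0.00788), Slco3a1 was called higher with 0.80 (FDR = 7.49e-05), and Slco4a1 was not called (0.17, FDR = 0.678). The endocytic receptors and their partners fell in 4 of 5, among them Lrpap1 with -1.36 (FDR = 0.000457), Amn with -1.60 (FDR = 0.00176) and Cubn with -0.81 (FDR = 0.00331), while Dab2, the endocytic adaptor, was not called at -0.02 (FDR = 0.919). All 6 named regulators were called lower, among them Nr1h4, the bile acid receptor, with -1.09 (FDR = 0.000106), and Emx1 with -1.21 (FDR = 0.000148). Tmem27, Slco4a1 and Dab2 were named after their values were seen.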

How the data were processed

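Ribosomal RNA was depleted from whole-kidney RNA and strand-specific paired-end libraries were sequenced (the labels call the molecule polyA RNA). Per the submitters' processing notes and the study's methods, the authors quantified transcripts with Salmon against the rn6 transcriptome and deposited estimated counts per gene, scaled for transcript length, and log2 normalized values made with limma-voom for part of the genes. The 34 columns of 2 tables of the whole series were not used. Members and lists were chosen with earlier results of these data known, and symbols came from the study's transcript lists.

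Estimated counts were rounded and filtered with filterByExpr, which kept 15438 of 23487 genes. Groups were compared with edgeR 4.0.16 (TMM, quasi-likelihood test, R 4.3.3, FDR < 0.05), a procedure checked on simulated counts for SNx against NoOp (80 of 100 genes changed 2-fold and 100 of 100 changed 4-fold were recovered). The simulated counts had the same dispersion in every gene and both groups. These rates do not carry over to the carriers called lower, whose median SD was 0.90 in SNx and 0.19 in NoOp. Pairs were tested by permutation (scipy 1.17.1). Values by library are given, in each of 9 groups, for the 2 lowest and 2 highest fold changes among members averaging 1 log2 CPM or more, and for paired members, the 3 members with the largest SNx SD and members listed from study 2 alone, and at most 3 genes per other list were named by p-value. Alternatives were DESeq2 1.42.0, limma 3.58.1, other scalings and filters, a minimum fold of 1.5, each library left out, and either range of library numbers alone. Some genes and 3 members are not reported here by name. Intervals cover counting error only.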

Additional observations from a re-analysis of the deposited data

Results flagged for a closer look

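In 2 of the 46 carriers with values by library, 1 control lay far from the other 4, where chance alone would give about 2.3. Slc39a6 was at 3.31 log2 CPM in NoOp 2, below the 3.45 to 3.48 of the other controls, and its log2 fold change without that library was 1.14. Slc5a9 was at 6.35 log2 CPM in NoOp 3, above the 5.77 to 5.88 of the other controls, and its log2 fold change without that library was -1.65.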

How the results depend on the processing

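The number of carriers called, 86 of 92, lay between 76 and 89 over the settings that changed the tool, scaling, filter or libraries, and no carrier changed sign. The number was 88 by DESeq2, 89 by limma-voom, 88 by limma on the deposited values, 87 with RLE size factors, 81 with library size alone, 85 without a filter and 84 of 90 tested with at least 10 counts in every library. It ran from 76 without NoOp 2 to 89 without SNx 11, and the count over all genes from 7914 to 9438 when 1 library was left out. Requiring a change of at least 1.5-fold left 2673 of 8949 genes (2010 higher, 663 lower) and 38 of 86 carriers (9 higher, 29 lower), since the test is then against a larger change. Among the carriers with values by library, 25 of 782 fold changes with 1 library left out and 12 of 414 under other settings were no longer past the threshold. When 1 SNx library was left out, r ran from 0.61 to 0.80 for Slc6a18 and Slc6a19, from -0.75 to -0.55 for Slc7a5 and Slc7a8, and from -0.63 to -0.20 for Slc2a2 and Slc5a1, and the cause was not tested. No paired analysis was made, since the study's methods describe separate SNx and control rats. At the depth of the SNx libraries, Slc19a3 in SNx 1 rests on 1 count, and Slc7a11 in NoOp on at most 2 counts per library.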
